A study of Sus scrofa with 2 samples.

Results

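PKHD1, DCDC2, BICC1, EFHC2, PKD1 and PKD2, which are genes of polycystic disease and of the primary cilium, were followed across the cell classes of the pig pancreas. These 6 genes were chosen by symbol, and all 6 symbols were found among the 31908 genes of the count matrices. Single-nucleus RNA sequencing was performed on pancreas tissue of 1 wild-type (WT) Bama pig and 1 PIGinH11 Bama pig, and each nucleus was marked by a barcode and each RNA molecule by a unique molecular identifier (UMI). PIGinH11 pigs carry GIPRdn (a dominant-negative receptor of the incretin hormone GIP), hIAPP (human islet amyloid polypeptide) and PNPLA3 I148M (a variant of a lipid droplet protein), inserted at the H11 locus under promoters active in beta cells or in liver, and none of these promoters was chosen for duct cells. Both pigs were 18 months old, and both ate a control diet for 6 months and then a high-fat and high-sucrose diet (HFHSD) for 12 months. With 1 pig per group there was no replicate check, so no test between groups or between classes could be made, and every interval below is a 95% interval that covers counting error only.

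The primary cilium is a microtubule-based, non-motile antenna on the surface of many cells, built and maintained by intraflagellar transport and separated from the cell body by a gate called the transition zone. In the pancreas, duct cells and islet cells carry primary cilia, whereas acinar cells generally lack them, and pancreatic cysts can accompany inherited polycystic kidney disease. PKHD1 encodes fibrocystin, the membrane protein mutated in the autosomal recessive disease, and PKD1 and PKD2 encode polycystin-1 and the cation channel polycystin-2, which are mutated in the autosomal dominant disease. BICC1 is an RNA-binding protein whose loss causes renal cysts in mice, DCDC2 is a doublecortin-domain protein that binds microtubules and is mutated in a ciliopathy of the bile ducts, and EFHC2 is an EF-hand protein of ciliary axonemes.

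After filtering, 24980 of 28583 barcodes were retained, with 11854 WT nuclei at a median of 3018.5 UMIs and 13126 PIGinH11 nuclei at a median of 1168 UMIs, so depth differed between the pigs by 2.72 times in the unfiltered matrices. The classes of interest were ductal-like nuclei (2148 WT and 2195 PIGinH11, median 3405 and 1020 UMIs) and acinar-like nuclei (8211 and 8091, median 3015 and 1231 UMIs), besides alpha-, beta-, delta-, gamma-, endothelial-, stellate-, mural-, Schwann-, macrophage- and lymphocyte-like nuclei. Left without a class name were 42 WT and 164 PIGinH11 endocrine nuclei, 31 and 78 immune nuclei and 576 and 1275 other nuclei. These unnamed nuclei are in none of the classes and class orders below. Of the 9 ductal markers that could be measured, 9 were highest in ductal-like nuclei in WT and 8 in PIGinH11, and none was at 0. The libraries shared 60 barcodes. Each class outside the ductal-like nuclei held between 0 and 21 nuclei with at least 10 UMIs of the ductal markers SLC4A4 and CFTR together, and values below that these nuclei changed by over 1.5 times are given with and without them.

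PKHD1, DCDC2 and EFHC2 were highest in ductal-like nuclei in both pigs. BICC1 was high in ductal-like and in stellate-like nuclei, PKD2 was spread over endothelial-like, stellate-like, mural-like, Schwann-like and ductal-like nuclei, and PKD1 was low everywhere and highest in stellate-like and mural-like nuclei. Levels are given as counts per 1000000 (CPM), that is, the UMIs of the gene scaled to this total over the UMIs of the class, first for WT and then for PIGinH11.

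**Figure D1:**
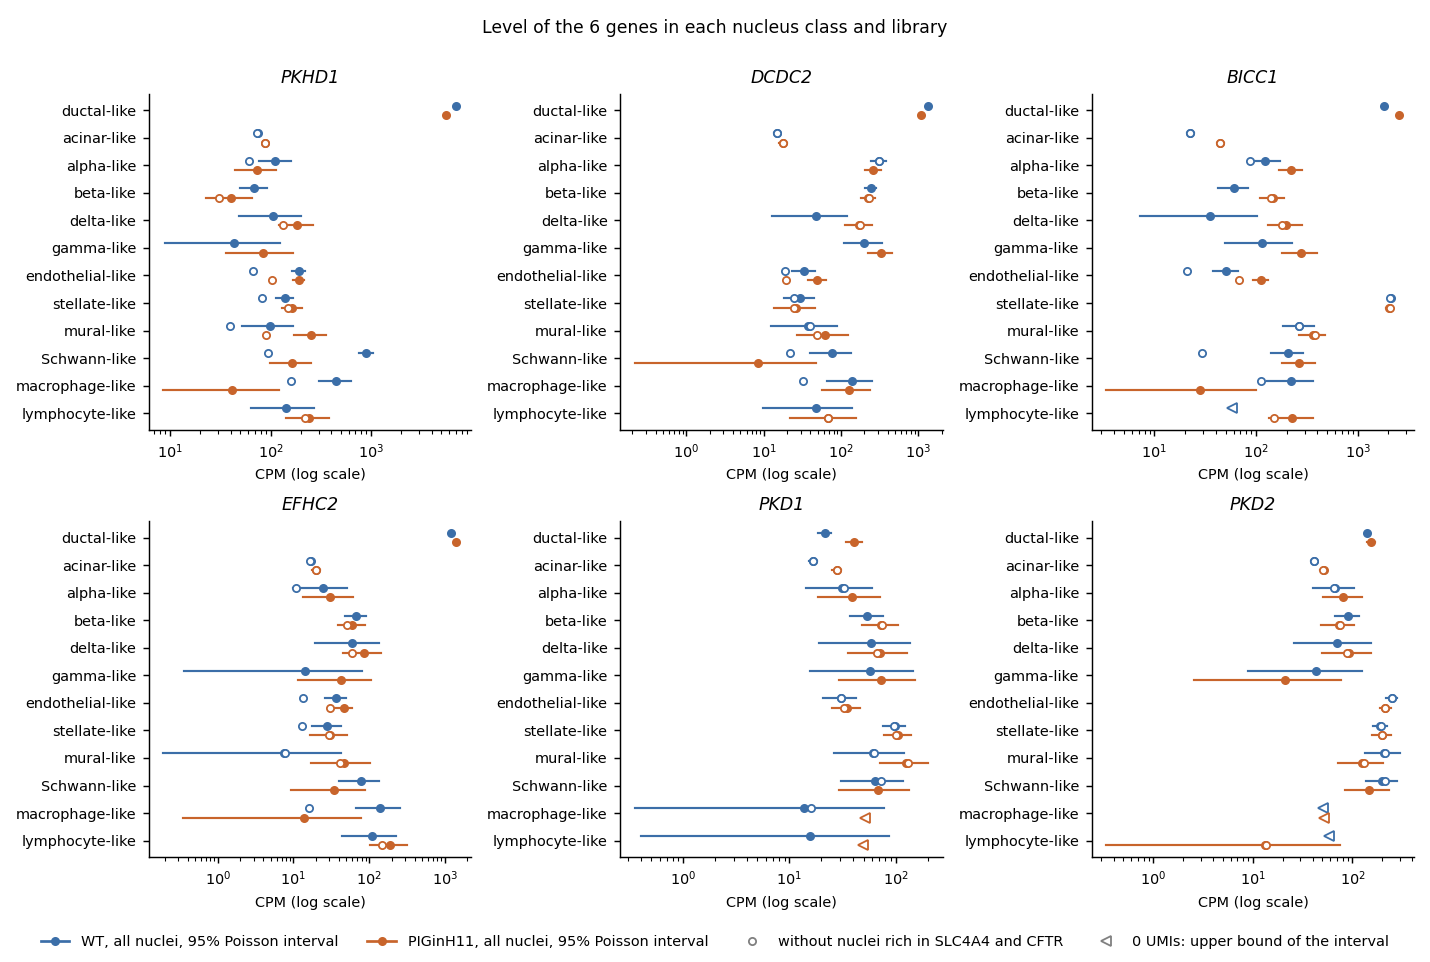
Level of each of the 6 genes in the 12 named classes, with CPM on a log axis, 1 point per library and 95% Poisson intervals for counting error. PKHD1 stands at 7070 CPM in WT and 5551 CPM in PIGinH11 ductal-like nuclei, BICC1 at 2110 and 2032 CPM in stellate-like nuclei, and PKD1 stays at or below 125 CPM in every class.

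PKHD1 lies at chr7:45447354-45925141 (Sscrofa11.1, ENSSSCG00000001746) and was among the most abundant transcripts of ductal-like nuclei, ranking 4 of all genes in WT and 3 in PIGinH11. Its level was 7070 CPM (95% interval 7014–7126, 60649 UMIs) in WT and 5551 CPM (5471–5632, 18374 UMIs) in PIGinH11. A PKHD1 UMI was found in 99.4% of WT and 95.7% of PIGinH11 ductal-like nuclei, and in 92.7% and 88.4% after each nucleus was thinned to 500 UMIs. Among individual ductal-like nuclei the median was 22 UMIs in WT, with a 10th to 90th percentile range of 4 to 62, against a median of 5 and a range of 1 to 19 in PIGinH11. PKHD1 was therefore a feature of nearly all ductal-like nuclei and not of a minority.

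Acinar-like nuclei were taken as the reference because they were the most numerous class and the nearest epithelial one. They had 74.98 CPM of PKHD1 in WT and 88.4 CPM in PIGinH11, and 23.1% and 14.0% of them held a UMI (5.01% and 6.40% after thinning). The source of these UMIs was not tested. Among the named classes, WT Schwann-like nuclei stood apart at 895 CPM and WT macrophage-like nuclei at 443 CPM, but 68 of the 139 PKHD1 UMIs of the former came from 1 nucleus. Without the nuclei rich in SLC4A4 and CFTR, the values were 94.5 CPM in WT Schwann-like and 160 CPM in WT macrophage-like nuclei, and WT endothelial-like nuclei went from 190 to 66.4 CPM. Unnamed endocrine nuclei were at 374 CPM in WT and 358 CPM in PIGinH11, and unnamed immune nuclei at 1362 and 313 CPM. Among the named classes of PIGinH11, mural-, lymphocyte-, endothelial-, delta-, stellate- and Schwann-like nuclei followed the ductal-like ones with overlapping intervals, from 250 to 162 CPM. Without the rich nuclei, mural-like nuclei were at 90.5 CPM (11 UMIs) and endothelial-like nuclei at 104 CPM, whereas lymphocyte-like (219 CPM, 125–355), stellate-like (149 CPM, 115–189) and Schwann-like nuclei (162 CPM, 97.8–254) stood above acinar-like nuclei without overlap. The limit of 10 UMIs was not scaled to depth. It removed 3 of 47 WT Schwann-like nuclei (median 3038 UMIs) and 0 of 90 PIGinH11 ones (median 916.5 UMIs).

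EFHC2, at chrX:39407390-39597537 (ENSSSCG00000021846), ranked first of the 6 genes by the smaller of its ductal-to-acinar ratios in the 2 pigs. In WT alone its log2 ratio of 6.18 was below those of PKHD1 (6.56), DCDC2 (6.46) and BICC1 (6.33). EFHC2 reached 1231 CPM (10559 UMIs) in WT and 1406 CPM (4654 UMIs) in PIGinH11 ductal-like nuclei, against 17.0 and 20.1 CPM in acinar-like nuclei. A UMI of EFHC2 was detected in 82.3% and 66.3% of ductal-like nuclei (38.5% and 43.9% after thinning), compared with 5.42% and 3.28% of acinar-like nuclei (0.986% and 1.52% after thinning). The next named classes by level were macrophage-like nuclei in WT (139 CPM, 10 UMIs) and lymphocyte-like nuclei in PIGinH11 (187 CPM, 14 UMIs), both from few UMIs. Without the rich nuclei these were 16.0 CPM from 1 UMI and 150 CPM from 11 UMIs, so the place of the macrophage-like nuclei rested on 2 nuclei. Beta-like nuclei had 66.7 and 60.05 CPM.

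DCDC2, at chr7:19044229-19219055 (ENSSSCG00000001085), was shared between duct and islet. It stood at 1319 CPM (11311 UMIs) in WT and 1071 CPM (3545 UMIs) in PIGinH11 ductal-like nuclei, and next in order came alpha-like nuclei (308 and 262 CPM), beta-like nuclei (244 and 225 CPM) and gamma-like nuclei (200 and 326 CPM), whose intervals overlapped in both pigs. Delta-like nuclei held 47.1 CPM from 4 UMIs in WT and 170 CPM from 26 UMIs in PIGinH11. Acinar-like nuclei, at 15.0 and 18.0 CPM, were lower than each of alpha- and beta-like nuclei without overlap.

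The islet UMIs of DCDC2 were spread over many nuclei. A UMI was detected in 52.2% of WT and 46.6% of PIGinH11 alpha-like nuclei and in 53.1% and 39.3% of beta-like nuclei, against 5.2% and 2.98% of acinar-like nuclei. After thinning the shares were 14.9% and 10.2% in alpha-like, 11.5% and 11.9% in beta-like and 1.13% and 1.31% in acinar-like nuclei. Without the nuclei rich in SLC4A4 and CFTR the levels were 314 and 262 CPM in alpha-like and 244 and 228 CPM in beta-like nuclei. PKHD1, in contrast, was at 68.4 and 40.0 CPM in beta-like nuclei, which was no higher than in acinar-like nuclei.

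BICC1, at chr14:61793362-62128424 (ENSSSCG00000010204), had its highest level in a different class in each pig. In WT it was 2110 CPM (2007–2217) in stellate-like and 1811 CPM (1783–1840) in ductal-like nuclei, whereas in PIGinH11 it was 2032 CPM (1904–2167) in stellate-like and 2530 CPM (2477–2585) in ductal-like nuclei. The change of order came from the ductal-like nuclei, since the PIGinH11 over WT log2 ratio of BICC1 was −0.05 (−0.17 to 0.06) in stellate-like nuclei and 0.48 (0.44 to 0.52) in ductal-like nuclei. A BICC1 UMI was found in 88.0% and 67.5% of stellate-like nuclei and in 91.6% and 81.1% of ductal-like nuclei. Leaving out the nuclei rich in SLC4A4 and CFTR left the stellate-like levels at 2067 and 2075 CPM.

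Mural-like nuclei came next for BICC1 in both pigs, at 266 and 359 CPM, and acinar-like nuclei were low at 22.5 and 44.5 CPM. In WT lymphocyte-like nuclei BICC1 was not detected in 24 nuclei, which allows a level of up to 47.1 CPM (3 UMIs), while the PIGinH11 class held 17 UMIs at 227 CPM (11 UMIs at 150 CPM without the rich nuclei). The PIGinH11 over WT log2 ratio of BICC1 was 0.98 in acinar-like, 0.85 in alpha-like, 1.27 in beta-like and 1.14 in endothelial-like nuclei. Macrophage-like nuclei had 222 CPM (16 UMIs) in WT and 27.8 CPM (2 UMIs) in PIGinH11, too few UMIs for a ratio. Without the rich nuclei the WT macrophage-like level was 112 CPM (7 UMIs). The acinar-like ratio was −0.16 in nuclei of 1000 to 2000 UMIs, and without the rich nuclei the endothelial-like levels went from 50.5 to 20.9 CPM in WT and from 111 to 67.7 CPM in PIGinH11. These levels are low, and the ductal-like level, which could enter them as free RNA, was also higher in PIGinH11, and its part in them was not tested.

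PKD2, at chr8:131002973-131058932 (ENSSSCG00000009217), was highest in endothelial-like nuclei, at 247 CPM (219–279, 269 UMIs) in WT and 214 CPM (189–242, 266 UMIs) in PIGinH11. In WT, mural-like (205 CPM), Schwann-like (200 CPM) and stellate-like nuclei (189 CPM) followed with overlapping intervals. Ductal-like nuclei, at 141 CPM (133–149), were below endothelial-like and stellate-like nuclei without overlap, but their interval overlapped those of mural-like and Schwann-like nuclei. In PIGinH11, stellate-like (197 CPM), ductal-like (153 CPM), Schwann-like (145 CPM) and mural-like nuclei (125 CPM) could not be separated from their neighbours in the order. Acinar-like nuclei were lower at 40.9 and 51.2 CPM, and macrophage-like nuclei held 0 UMIs in both pigs, which allows up to 41.6 CPM in WT and 41.8 CPM in PIGinH11. For PKD2, ductal-like nuclei were thus below endothelial-like nuclei without overlap in both pigs, whereas PKHD1, DCDC2 and EFHC2 were highest in ductal-like nuclei.

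PKD1, at chr3:39849579-39899455 (ENSSSCG00000008041), was the least abundant of the 6 genes in ductal-like nuclei. Its ductal-like level was 21.4 CPM (18.5–24.8, 184 UMIs) in WT and 40.8 CPM (34.2–48.3, 135 UMIs) in PIGinH11, and its acinar-like level 16.8 and 27.9 CPM. Stellate-like nuclei were highest in WT at 97.9 CPM and mural-like nuclei in PIGinH11 at 125 CPM, and neither could be separated from the next class in the order. Beta-like nuclei had 53.7 and 72.6 CPM, above acinar-like nuclei without overlap in both pigs. In RefSeq the locus of PKD1 overlaps that of TSC2, a protein-coding gene, so the assignment of these UMIs is uncertain. The loci of PKHD1, BICC1 and EFHC2 overlap pseudogenes, and that of BICC1 also a long non-coding RNA. No overlapping gene was listed for DCDC2 and PKD2.

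Per length of the locus, PKHD1 remained the most abundant in ductal-like nuclei, with 1480 and 1162 CPM per 100 kb. Whether UMI counts scale with the length of a locus was not tested, so this order is a description. DCDC2 (754 and 613), EFHC2 (647 and 739) and BICC1 (541 and 755 CPM per 100 kb) were close to each other, and PKD2 had 252 and 273. The value of PKD1 was 43.0 and 81.8 CPM per 100 kb, the lowest of the 6 also on this scale.

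Within ductal-like nuclei, the expression of PKHD1, DCDC2, BICC1 and EFHC2 was compared with that in acinar-like nuclei of the same library. The log2 ratios were 6.56 in WT and 5.97 in PIGinH11 for PKHD1, 6.46 and 5.90 for DCDC2, 6.33 and 5.83 for BICC1 and 6.18 and 6.13 for EFHC2. Ordered by the smaller of the 2 ratios among 16499 genes, EFHC2 ranked 10, PKHD1 16, DCDC2 22 and BICC1 25. These ratios moved with the setting. In nuclei of 1000 to 2000 UMIs the WT ratios were 4.94 for PKHD1, 4.96 for DCDC2, 5.24 for BICC1 and 5.01 for EFHC2, and with the mean of the other classes as reference that of BICC1 was 2.63 in WT and 2.83 in PIGinH11. PKD2 had log2 ratios of 1.79 and 1.57 and ranked 1358, and PKD1 had 0.35 (0.10 to 0.60) and 0.55 (0.26 to 0.83) and ranked 4981. Thus 5 of the 6 genes were at least 2-fold higher in ductal-like nuclei in both pigs, where 14.0% of all genes were. The count is no independent evidence, since the study itself had listed PKHD1, DCDC2, BICC1 and EFHC2 as genes of the ductal cells of these samples.

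The remaining acinar-like signal of these 4 genes was nearly the same fraction of their ductal-like level. In WT the acinar-like level was 1.06% of the ductal-like level for PKHD1, 1.14% for DCDC2, 1.24% for BICC1 and 1.38% for EFHC2, and in PIGinH11 it was 1.59%, 1.68%, 1.76% and 1.43%. The 9 ductal markers ranged more widely, from SCTR (0.783% and 1.29%), PPP2R2B (1.07% and 1.78%) and SPON1 (1.13% and 1.60%) over SLC4A4 (1.42% and 1.94%), KCNE3 (1.78% and 1.90%), CACHD1 (1.37% and 3.28%) and CCBE1 (2.04% and 2.60%) to CFTR (3.08% and 11.5%) and ANXA4 (11.9% and 25.5%). The acinar-like levels of PKD2 (28.9% and 33.6%) and PKD1 (78.4% and 68.4%) were a larger part of the ductal-like ones. When free RNA was estimated as the UMIs per nucleus in lymphocyte-, macrophage- and Schwann-like nuclei, the estimate exceeded the acinar-like UMIs per nucleus of all 6 genes in both pigs. In WT it came to 714%, 496%, 635% and 507% of the acinar-like UMIs of PKHD1, DCDC2, BICC1 and EFHC2. Without the nuclei rich in SLC4A4 and CFTR these shares were 136%, 169%, 156% and 150%. In PIGinH11 they were 166%, 305%, 412% and 345%, and 159%, 309%, 365% and 294% without those nuclei. Of the 180 PKHD1 UMIs behind the WT estimate, 139 came from Schwann-like nuclei. Since the estimate was larger than the whole acinar-like signal, it cannot separate free RNA from expression in acinar-like nuclei. In ductal-like nuclei it came to at most 8.51% of the UMIs of PKHD1, DCDC2, BICC1 and EFHC2. For PKD2 it came to 60.4% and 50.8% and for PKD1 to 154% and 84.5%. Of the PKD2 UMIs behind the estimate, 31 of 31 in WT and 17 of 18 in PIGinH11 came from Schwann-like nuclei. For PKD1 these were 10 of 12 and 8 of 8. For PKD1 and PKD2 the estimate thus cannot separate free RNA from expression in Schwann-like nuclei, and their levels were not judged against it.

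**Figure D2:**
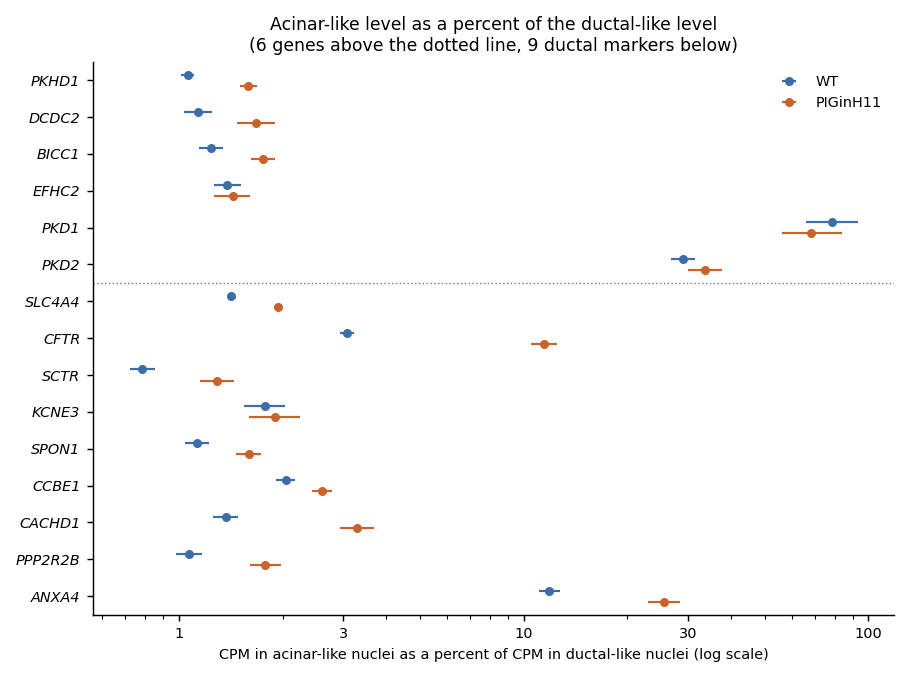
Acinar-like level as a percent of the ductal-like level (log axis) for the 6 genes and 9 ductal markers in each library, with 95% intervals for counting error. PKHD1, DCDC2, BICC1 and EFHC2 lie between 1.06% and 1.76%, while PKD2 is at 28.9% and 33.6% and PKD1 at 78.4% and 68.4%.

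PKHD1, DCDC2, BICC1 and EFHC2 were also counted together in individual ductal-like nuclei. All 4 had a UMI in 70.0% of WT and 36.3% of PIGinH11 ductal-like nuclei, and in 8.33% and 8.79% after thinning to 500 UMIs. Whether they met more often than their single shares give was not tested. The gap between the pigs in the joint share was seen with the full depth and not after thinning. Single shares still differed after thinning, with DCDC2 at 43.6% and 33.5% and BICC1 at 55.1% and 63.0%. PKD1 was detected in 7.82% and 5.51% of ductal-like nuclei and PKD2 in 35.0% and 17.4%.

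When the ductal-like nuclei were clustered again without these genes, 8 subclusters were obtained, of which 2 had a low EFHC2 and a high BICC1. In the subcluster led by the basement membrane collagens COL4A4 and COL4A3 (156 WT and 78 PIGinH11 nuclei), EFHC2 was 279 CPM (233–332) in WT and 520 CPM (385–688) in PIGinH11, and BICC1 was 3747 and 4405 CPM. In the subcluster led by LGR5, a receptor of R-spondins (31 and 36 nuclei), EFHC2 was 118 CPM from 18 UMIs and 159 CPM from 11 UMIs, and BICC1 was 4633 and 3438 CPM. Summed ductal markers of this LGR5-led subcluster were the lowest of the 8 in both pigs, at 14782 CPM in WT and 19990 CPM in PIGinH11, where the next subcluster had 20101 CPM. SLC4A4 weighs most in this sum, with 26733 of 38655 CPM over all WT ductal-like nuclei. The keratin KRT7, which was not among the markers, was highest in the LGR5-led subcluster, at 517 and 664 CPM. The next highest KRT7 levels were 92.4 and 223 CPM in the COL4A4-led subcluster. In 5 other subclusters EFHC2 lay between 1211 and 1409 CPM in WT and between 1331 and 1659 CPM in PIGinH11, and BICC1 between 1510 and 1694 and between 2186 and 2772 CPM, without overlap with those of the COL4A4-led and LGR5-led subclusters. The last subcluster (30 and 27 nuclei) had the acinar markers CDH4, CHN2, RBPJL and EFEMP1 among its 10 leading genes. No subcluster had a ductal marker among these genes, which rank a subcluster against the other ductal-like nuclei. Summed ductal markers in the last subcluster were 31338.9 CPM in WT and 30176.5 CPM in PIGinH11. Its summed acinar markers were 10530.7 and 7251.72 CPM. In this subcluster EFHC2 was 880 and 982 CPM and BICC1 1381 and 2456 CPM.

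PKHD1 and DCDC2 were present in all 8 subclusters. PKHD1 ranged from 4523 to 7774 CPM in WT and from 2672 to 6555 CPM in PIGinH11, and DCDC2 from 589 to 1457 and from 433 to 1445 CPM. Outside the COL4A4-led, LGR5-led and last subclusters, PKHD1 rose with depth. In WT it went from 4523 CPM at a median of 1070 UMIs to 7759 CPM at 7612 UMIs, while summed acinar markers fell from 22278 to 3992 CPM. In PIGinH11 it went from 4255 CPM at 636 UMIs to 6555 CPM at 4079.5 UMIs. The part of depth in these ranges was not tested. The lowest DCDC2 level was in the LGR5-led subcluster in both pigs. PKHD1 was as high in the COL4A4-led subcluster (7774 and 5711 CPM) as elsewhere, so the low EFHC2 there did not go with a low level of PKHD1. In the LGR5-led subcluster, where EFHC2 was lowest, PKHD1 was 5235 CPM in WT and 2672 CPM in PIGinH11, its lowest level in that pig. The highest level over the lowest was 12.0-fold and 10.4-fold for EFHC2, compared with 1.72-fold and 2.45-fold for PKHD1. Subclusters of 1 pig are not replicates, and that the same subclusters were low in EFHC2 in both libraries is given as a description.

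**Figure D3:**
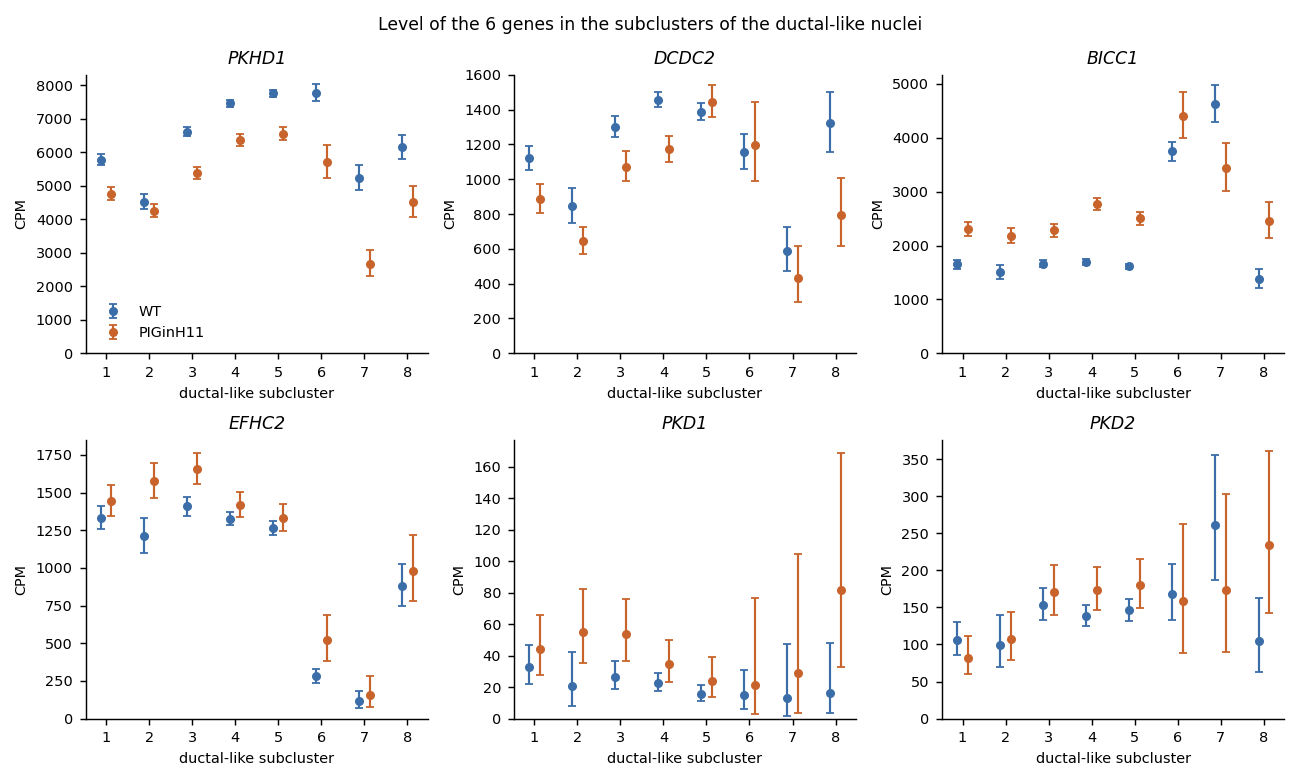
Levels of the 6 genes in CPM (linear axis) in the 8 subclusters of ductal-like nuclei in each library, with 95% Poisson intervals. EFHC2 is at 279 and 520 CPM in subcluster 6 (COL4A4-led) and at 118 and 159 CPM in subcluster 7 (LGR5-led), where BICC1 reaches 3438 to 4633 CPM.

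PIGinH11 was then compared with WT in ductal-like nuclei. With 1 pig and 1 library per genotype, the transgenes cannot be told apart from the animal, the library and its depth. On the log2 scale, PIGinH11 over WT came to −0.35 (−0.37 to −0.33) for PKHD1, −0.30 (−0.35 to −0.25) for DCDC2, 0.48 (0.44 to 0.52) for BICC1, 0.19 (0.14 to 0.24) for EFHC2, 0.93 (0.60 to 1.26) for PKD1 and 0.11 (−0.04 to 0.26) for PKD2. The median of all genes that had 20 or more UMIs in both libraries was 0.15, and relative to it the values were −0.50, −0.45, 0.33, 0.04, 0.78 and −0.04, so the sign of PKD2 turned with this scaling. None of the 6 genes reached 2-fold, past which 17.4% of all genes were higher and 3.63% lower in PIGinH11. Of all genes, 16.5% had a lower ratio than PKHD1, 67.1% a lower ratio than BICC1 and 81.2% a lower ratio than PKD1.

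PKHD1 and DCDC2 were higher in deeper nuclei of the same pig. When ductal-like nuclei were split into depth quartiles, from the shallowest to the deepest, PKHD1 was 5263, 6414, 7132 and 7566 CPM in WT and 4340, 4550, 5322 and 6128 CPM in PIGinH11, and DCDC2 went from 949 to 1420 CPM and from 708 to 1235 CPM. BICC1 had no such course in WT, with 1921 CPM in the shallowest and 1719 CPM in the deepest quartile, whereas in PIGinH11 it went from 2044 to 2653 CPM. EFHC2 lay between 1162 and 1263 CPM in the WT quartiles and between 1342 and 1520 CPM in the PIGinH11 quartiles.

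In nuclei of 1000 to 2000 UMIs (417 WT and 670 PIGinH11 nuclei, median 1494 and 1331.5 UMIs), PKHD1 was 5363 and 5309 CPM, with a log2 ratio of −0.01 (−0.08 to 0.05), and DCDC2 was 958 and 1019 CPM, with a log2 ratio of 0.09 (−0.06 to 0.24). BICC1 remained higher in PIGinH11, with 1907 and 2571 CPM and a log2 ratio of 0.43 (0.33 to 0.53). EFHC2 had 0.32 (0.19 to 0.45), PKD1 1.13 (0.30 to 2.04, 16 and 52 UMIs) and PKD2 0.52 (0.09 to 0.97, 66 and 141 UMIs). This comparison at matched depth was added after the data had been seen. It sets shallow WT nuclei beside deeper PIGinH11 nuclei of their library, since the shallowest WT quartile had a median of 1283 UMIs and the third PIGinH11 quartile 1289 UMIs. No median over all genes is given for this window. After thinning to 500 UMIs the log2 ratios of PKHD1 and DCDC2 were −0.40 and −0.48. Thinning keeps the deep nuclei, so it does not match nuclei by depth. The WT quartile with a median of 2654 UMIs was also set beside the PIGinH11 quartile with a median of 2754 UMIs. There PKHD1 was 6414 CPM (6283–6547) in WT and 6128 CPM (6014–6244) in PIGinH11. DCDC2 was 1192 CPM (1136–1250) and 1235 CPM (1184–1288), with overlapping intervals. BICC1 was higher in PIGinH11 in all 3 comparisons. The part of depth in these differences was not tested.

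**Figure D4:**
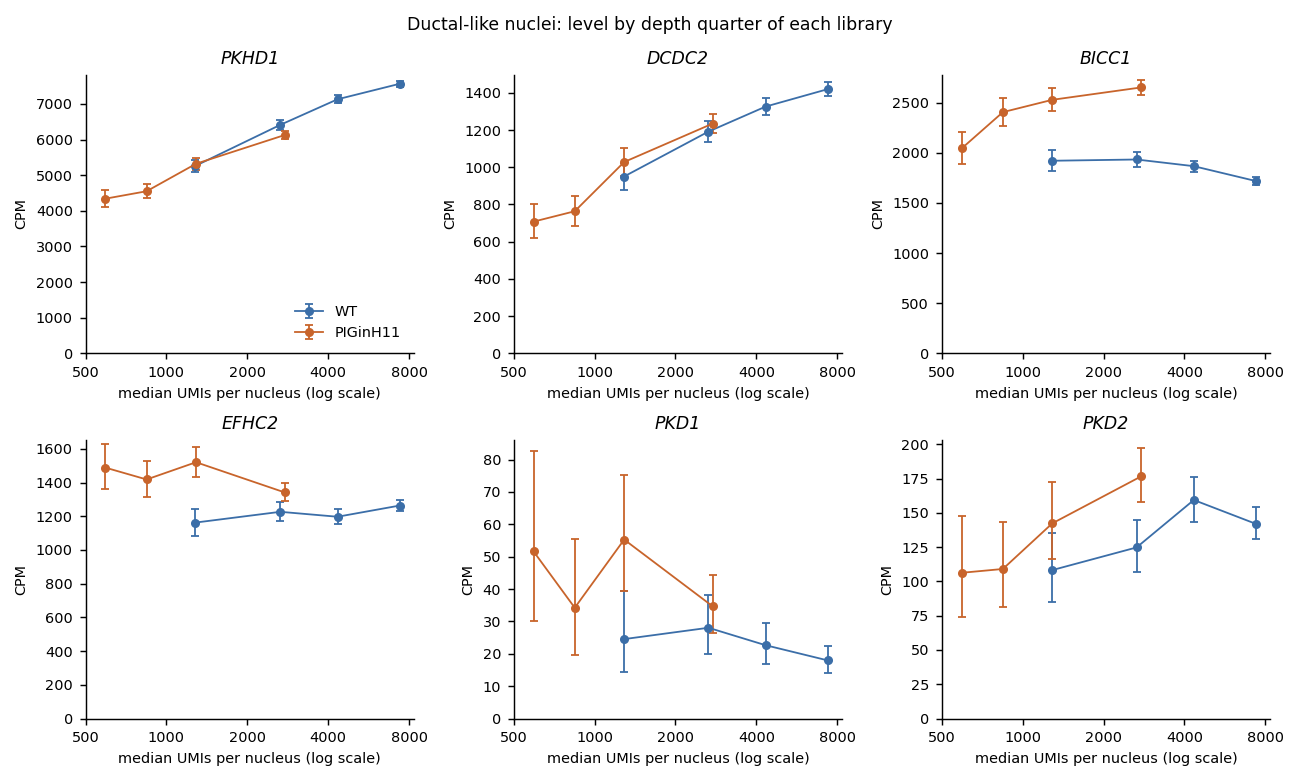
CPM of the 6 genes in ductal-like nuclei by depth quartile (x axis, median UMIs per nucleus, log) in each library, with 95% Poisson intervals. PKHD1 goes from 5263 to 7566 CPM in WT and from 4340 to 6128 CPM in PIGinH11, while BICC1 is higher in every PIGinH11 quartile (2044 to 2653 CPM) than in any WT quartile (1719 to 1934 CPM).

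In acinar-like nuclei the corresponding log2 ratio was 0.24 for PKHD1, 0.26 for DCDC2, 0.98 for BICC1, 0.24 for EFHC2, 0.73 (0.54 to 0.92) for PKD1 and 0.33 for PKD2, beside a median of 0.25 over all genes. PKHD1, DCDC2 and EFHC2 were thus at the median. In nuclei of 1000 to 2000 UMIs the ratios were −0.82 for PKHD1, −0.34 for DCDC2, −0.59 for EFHC2 and −0.16 for BICC1. None of the 6 genes reached 2-fold, past which 18.2% of all genes were higher and 3.14% lower. With all nuclei, BICC1 and PKD1 were above the median in acinar-like as in ductal-like nuclei.

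The genes whose pattern was most like that of each of the 6 were sought among 12002 genes, by Pearson's r of log2(CPM + 5) over 24 points, which are 12 classes in each library. Points of a library share its depth and free RNA, and r is a description. PKHD1 was most like SLC4A4, the sodium bicarbonate cotransporter of duct cells (r = 0.978), MMD (0.935) and KIT (0.882), and EFHC2 most like ZMYND8 (0.909), PKHD1 itself (0.862) and SLC4A4 (0.842). DCDC2 was most like HIPK2 (0.825), C12orf75 (0.799) and CCDC191 (0.785), and BICC1 most like SPON1 (0.816), CCBE1 (0.796) and SLIT2 (0.794). SLC4A4, SPON1 and CCBE1 are among the markers that named the ductal-like nuclei, so likeness to them is no independent evidence. PKD2 was most like NCKAP1 (0.930), HHAT (0.892) and FERMT2 (0.891), and PKD1 most like DENND2A (0.872), KLHL29 (0.827) and AHDC1 (0.823). PKD1 and PKD2 had r = 0.678 with each other, PKHD1 and DCDC2 0.436 and PKHD1 and BICC1 0.558.

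To place the 6 genes among other genes of cilia and cystic disease, 139 genes in 10 lists were examined, of which 127 had a symbol in the matrices and 119 had at least 20 UMIs in ductal-like and acinar-like nuclei together in both libraries. Of these 119 genes, 55 (46.2%) exceeded their acinar-like level at least 2-fold in the ductal-like nuclei of both pigs, where 14.0% of all genes did, and 5 (4.20%) were at least 2-fold lower, where 11.4% were. The median over the genes of the smaller of the 2 log2 ratios was 0.92, compared with −0.09 for all genes. PKHD1, DCDC2, BICC1 and EFHC2 had larger ratios than each of the 119 genes. This order is no independent evidence either, since these 4 genes were already listed by the study as ductal in these samples.

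Intraflagellar transport, the motor-driven traffic along the axoneme, had 19 of 29 tested genes at least 2-fold higher in ductal-like nuclei (median log2 ratio 1.45). DYNC2H1, the heavy chain of the retrograde dynein, had 273 and 249 CPM and log2 ratios of 4.79 and 4.31, and KIF3A, a subunit of the anterograde kinesin-2, had 235 and 268 CPM and 3.56 and 3.42. The transition zone list had 11 of 19 (median 1.05), with CC2D2A at 3.31 and 3.00, and the nephronophthisis list 10 of 20 (median 0.92). The genes of motile cilia had 8 of 13 (median 1.18), although FOXJ1, the master regulator of motile cilia, had 0 UMIs in ductal-like and acinar-like nuclei (up to 0.350 and 0.906 CPM in ductal-like nuclei at 3 UMIs).

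Other lists had fewer such genes. The BBSome and Bardet–Biedl genes had 4 of 10 (median 0.56), with BBS1 at 3.43 and 2.93. The genes of the ciliary membrane and its signalling had 4 of 12 (median 0.61), but EVC and EVC2, which act together in Hedgehog signalling at the cilium base, had log2 ratios of 5.83 and 5.06 and of 5.87 and 5.22. Transcription factors of cilia and ducts had 3 of 9 (median 0.72), with ductal-like levels of 3539 and 3282 CPM for GLIS3. The doublecortin relatives of DCDC2 had 2 of 6 (median 0.10), with DCDC1 at 3.84 and 3.05, the relatives of PKD1, PKD2 and PKHD1 had 1 of 2 (PKD1L2), and the other polycystic kidney and liver disease genes, many of which serve in the endoplasmic reticulum, had 1 of 9 (median −0.65).

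**Figure D5:**
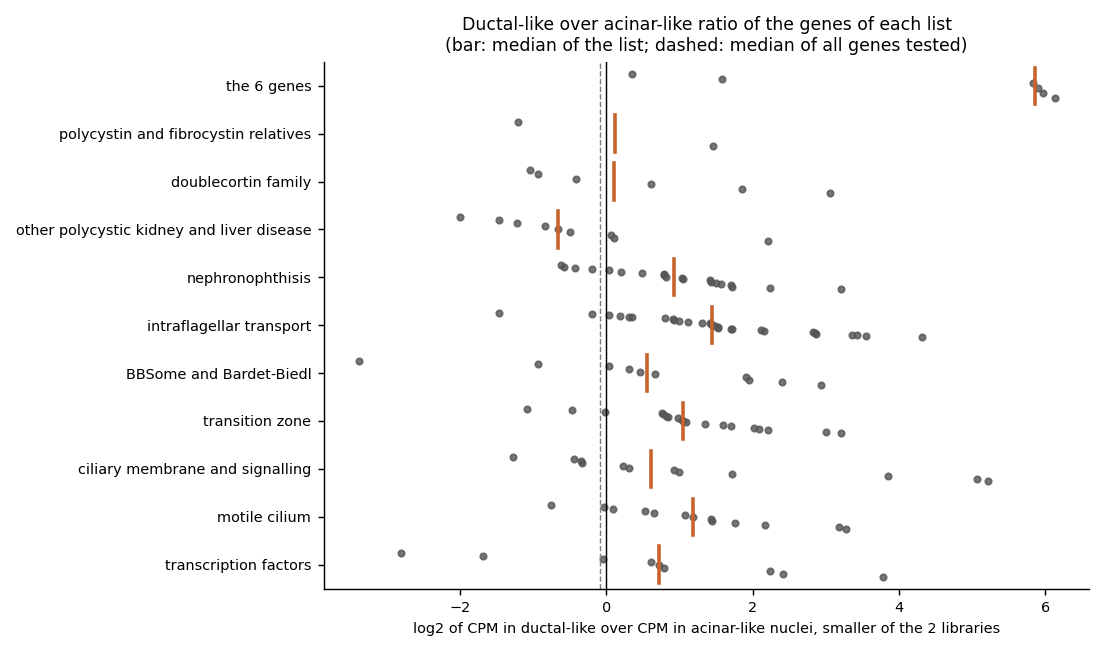
Log2 ratio of ductal-like over acinar-like level per gene, as the smaller of the 2 libraries' values, for the 6 genes and the 10 lists. PKHD1, DCDC2, BICC1 and EFHC2 are the points to the right of all list genes, and the medians of the lists run from 1.45 for intraflagellar transport to −0.65 for the other polycystic kidney and liver disease genes.

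The islet classes resembled the ductal-like nuclei in many of these genes, in a comparison that was added after the data had been seen. With alpha-, beta-, delta- and gamma-like nuclei summed, 61 of 119 list genes (51.3%) were at least 2-fold higher than in acinar-like nuclei in both pigs, where 16.3% of all genes were, and 5 were at least 2-fold lower, where 13.8% were. The list of motile cilia had 11 of 13, intraflagellar transport 20 of 29 and the transition zone 12 of 19. RFX2, a transcription factor of ciliary genes, was 514 and 617 CPM in the islet classes, with log2 ratios over acinar-like nuclei of 7.23 and 6.18, while its ductal-like level was 5.71 and 12.99 CPM. Of the 6 genes, DCDC2 (log2 ratios 4.02 and 3.72), BICC1 (1.81 and 2.08), EFHC2 (1.59 and 1.42) and PKD1 (1.52 and 1.17) were at least 2-fold higher in the islet classes, whereas PKD2 (0.95 and 0.51) and PKHD1 (0.12 and −0.18) were not. Unnamed endocrine nuclei, at 374 and 358 CPM of PKHD1, were left out of these sums. The free RNA estimate came to 25.8% and 14.9% of the islet UMIs of DCDC2, but to 153% and 62.3% of those of BICC1 and 142% and 82.6% of those of EFHC2, so the WT islet levels of BICC1 and EFHC2 were not above it. Without the nuclei rich in SLC4A4 and CFTR it came to 42.5% and 56.8% for BICC1 and 44.5% and 83.2% for EFHC2, with log2 ratios over acinar-like nuclei of 1.63 and 2.05 and of 1.51 and 1.19.

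Between the pigs, the list genes of ductal-like nuclei had a median log2 ratio of 0.15, compared with 0.18 for all genes tested. Of 119 genes, 9 (7.56%) were at least 2-fold higher in PIGinH11, where 17.4% of all genes were, and 3 (2.52%) at least 2-fold lower, where 3.63% were. The highest of those that had 20 or more UMIs in WT and in PIGinH11 was ZNF423, with 4.08 CPM (35 UMIs) and 19.3 CPM (64 UMIs), which was most abundant in endothelial-like nuclei (300 and 435 CPM). RFX2 had a log2 ratio of 1.19 from 49 and 43 UMIs. In acinar-like nuclei 23 of 123 genes (18.7%) were higher and 1 (0.813%) lower, beside the 18.2% and 3.14% of all genes.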

How the data were processed

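Single-nucleus RNA-seq of pancreas from 1 WT and 1 PIGinH11 pig was used. The authors deposited raw UMI counts per gene and barcode, from reads aligned to Sscrofa11.1 with Cell Ranger (v3.1.0 in the methods, v5.0.0 in the file headers), before their doublet removal and filters. Whether counting used the strand is not given in the sources used here. Members and gene lists were chosen with earlier results of these data known.

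A barcode was kept if it held 270 to 3700 genes, under 13000 UMIs and under 10% mitochondrial UMIs, and the highest Scrublet scores (scanpy v1.11.5), 0.8% for each 1000 barcodes, were removed as doublets. The methods print 1300 for the UMI limit, which was used as an alternative, since it leaves 1888 WT nuclei. Nuclei were clustered on 2000 variable genes per library, without the 133 reported genes, with 30 principal components, Harmony and Louvain (igraph v0.11.9, resolution 1), and clusters were named from at least 3 fixed markers. No gene carried the symbol of the ductal marker KRT19.

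UMI counts were added up per class and library and scaled to counts per 1000000 (CPM). Intervals were exact (Poisson for a level, Clopper–Pearson for a share, conditional binomial for a ratio) at 95% and cover counting error only. Ratios needed at least 20 UMIs in the sums compared. Locus positions came from RefSeq (Sscrofa11.1). The rule for genes named took the 6 members, from each list the 3 genes with the largest ductal-like over acinar-like ratio and the 2 with the largest PIGinH11 over WT ratio in ductal-like nuclei, of which those that bear on a result are printed, FOXJ1, and for each member the 3 genes most like it. Some genes this rule names are not reported here. The alternatives were no doublet removal, a gene minimum of 500, no Harmony, resolution 2, all variable genes, classes by marker UMIs, median-of-ratios scaling, the mean over nuclei, thinning to 500 UMIs, subtraction of free RNA, the mean of the other classes as reference and no UMI minimum. The exclusion of nuclei rich in SLC4A4 and CFTR, alone or with subtraction of free RNA, the comparison within 1000 to 2000 UMIs and the comparison of islet classes were chosen after seeing the data. On simulated data, 95.8% of intervals held the simulated ratio in ductal-like nuclei (13097 genes, changed and unchanged). The simulated counts had counting error only, so this does not cover the spread between nuclei or pigs.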

Additional observations from a re-analysis of the deposited data

Results flagged for a closer look

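With all nuclei, PKHD1 and DCDC2 differed between the pigs in opposite directions in the epithelial classes. On the log2 scale, PIGinH11 over WT was −0.35 for PKHD1 and −0.30 for DCDC2 in ductal-like nuclei, but 0.24 and 0.26 in acinar-like nuclei, and with 1 pig per group this difference between the classes was not tested. The median shift of all genes in acinar-like nuclei was 0.25, and with median-of-ratios scaling the acinar-like values were −0.012 and 0.012, so neither gene was then clearly higher in PIGinH11 acinar-like nuclei. The acinar-like levels stand at 1.06% to 1.68% of the ductal-like ones. At 1000 to 2000 UMIs per nucleus the acinar-like ratios were −0.82 for PKHD1 and −0.34 for DCDC2. The ductal-like ratios there were −0.01 (−0.08 to 0.05) and 0.09 (−0.06 to 0.24), so the contrast seen with all nuclei did not hold at that depth. That window takes the shallower WT nuclei (417 of 2148 ductal-like ones), and no median over all genes is given for it.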

How the results depend on the processing

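No paired analysis was possible because each group has 1 pig and 1 library. Of the ductal-like over acinar-like ratios, those of PKHD1, DCDC2, BICC1, EFHC2 and PKD2 kept their sign under all 14 alternatives that gave a value, but not their size. The lowest values of PKHD1 were 4.24 in WT and 4.63 in PIGinH11 with a UMI limit of 1300, and that of EFHC2 in WT 4.53. With the mean of the other classes as reference, DCDC2 was 3.62 and 3.14, BICC1 2.63 and 2.83, PKD2 0.43 and 0.73, and EFHC2 in PIGinH11 4.69. The count of 5 members at least 2-fold higher was 4 with the mean of the other classes as reference, 5 in the others (genes whose acinar-like UMIs fell to 0 under free RNA subtraction count as higher). With free RNA subtracted that count thus measures no ratio. These counts are given without the share of all genes under each setting, since the 14.0% holds for the main setting only. That of PKD1 in WT was −0.066 with a UMI limit of 1300, and with the mean of the other classes as reference it was −1.09 in WT and −0.46 in PIGinH11. Free RNA subtraction left no acinar-like UMIs for the 6 genes, so no ratio could be given there.

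For PIGinH11 over WT in ductal-like nuclei, BICC1 (0.33 to 0.93), EFHC2 (0.04 to 0.68) and PKD1 (0.77 to 1.13) kept their sign in all settings that gave a value. The log2 ratios of PKHD1, DCDC2, BICC1 and EFHC2, in this order, were −0.058, 0.027, 0.43 and 0.37 with a UMI limit of 1300, −0.43, −0.41, 0.42 and 0.079 without doublet removal, −0.44, −0.37, 0.38 and 0.11 with classes by marker UMIs, −0.50, −0.45, 0.33 and 0.040 with median-of-ratios scaling, −0.38, −0.41, 0.39 and 0.26 as the mean over nuclei, −0.40, −0.48, 0.38 and 0.26 after thinning, −0.015, 0.090, 0.43 and 0.32 at 1000 to 2000 UMIs, 0.15, 0.12, 0.90 and 0.64 with free RNA subtracted, and 0.16, 0.17, 0.93 and 0.68 with free RNA subtracted after nuclei rich in SLC4A4 and CFTR were left out. PKD2 was 0.29, 0.28, 0.52, 0.86 and 0.93 with the UMI limit of 1300, thinning, 1000 to 2000 UMIs and the 2 free RNA settings, and −0.04 with median-of-ratios scaling. The cause of these shifts was not tested.

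In acinar-like nuclei the ratio of PIGinH11 over WT turned negative for PKHD1, DCDC2 and EFHC2 with a UMI limit of 1300 (−0.44, −0.25 and −0.16), without Harmony (−0.35, −0.34 and −0.21) and at 1000 to 2000 UMIs (−0.82, −0.34 and −0.59, and −0.16 for BICC1), and for PKHD1 and EFHC2 with median-of-ratios scaling (−0.012 and −0.0057). Without Harmony 4835 PIGinH11 nuclei were acinar-like, compared with 8091.

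The counts of list genes below are given without the number tested and the share of all genes under each setting. They therefore do not show whether the lists moved apart from all genes. The count of 55 list genes higher in ductal-like nuclei was 30 with the UMI limit of 1300 and 12 with the mean of the other classes as reference, and the 5 lower were 3 and 9 there and 8 and 9 with free RNA subtracted, without and with the exclusion of rich nuclei. In PIGinH11 ductal-like nuclei the 9 higher were 18 with the UMI limit of 1300, 19 and 23 with free RNA subtracted, 16 with no UMI minimum and 4 at 1000 to 2000 UMIs, and the 3 lower were 29 and 32 with free RNA subtracted and 1 without doublet removal, with classes by marker UMIs and after thinning. In acinar-like nuclei the 23 higher were 15 with the UMI limit of 1300, 13 with median-of-ratios scaling, 7 without Harmony and 7 at 1000 to 2000 UMIs, and the 1 lower was 0 with the UMI limit of 1300, without doublet removal and as the mean over nuclei, 2 without Harmony, 3 with median-of-ratios scaling and at 1000 to 2000 UMIs, and 24 and 26 with free RNA subtracted. The 61 list genes higher in the islet classes were 13 with the UMI limit of 1300, where beta-like nuclei were the only islet class named, 35 after thinning and 27 at 1000 to 2000 UMIs, where fewer UMIs remained, and between 53 and 70 otherwise, and the 5 lower were 13 with the UMI limit of 1300. Depth limits PKD1 most, with 135 UMIs in PIGinH11 ductal-like nuclei, and the islet and immune classes, where most members had under 100 UMIs.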

Other observations

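Several list genes were higher in islet-like than in ductal-like nuclei. DNAH5, a dynein heavy chain of motile cilia, was highest in beta-like nuclei in both pigs, with 127 CPM (78 UMIs) in WT and 370 CPM (148 UMIs) in PIGinH11, compared with 67.0 and 72.8 CPM in ductal-like nuclei. RFX2 was highest in delta-like nuclei, at 1000 CPM (85 UMIs) and 1208 CPM (185 UMIs). DCDC1, a doublecortin relative of DCDC2, reached 327 CPM in WT beta-like and 324 CPM in PIGinH11 alpha-like nuclei, compared with 152 and 148 CPM in ductal-like nuclei. EVC and EVC2 were not shared in this way, with 1 UMI each over the WT alpha-, beta-, delta- and gamma-like nuclei and 4 UMIs each over the PIGinH11 ones. These values come from 240 WT and 328 PIGinH11 nuclei, and differences between the pigs were not tested.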
